A study of Mus musculus with 23 samples.

Results

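The genes described here are 9 markers of T, B and natural killer (NK) lymphocytes in mouse liver: Cd3e, Cd3d, Cd4, Cd8a, Cd79a, Ms4a1, Jchain, Nkg7 and Gzma. They were chosen by gene symbol from 27179 genes in the count table, of which 20380 had a read, and all 9 had reads. The sequenced RNA came from pieces of liver in which no tumor was seen, taken from 15 female mice. Ctrl mice (n = 6) carried Alb-Cre, wild-type Braf, Trp53 flx/flx and Icmt flx/+. ABpIF/+ mice (n = 6) carried Alb-Cre, the BrafCA/+ knockin allele that encodes the oncogenic V600E form, Trp53 flx/flx and Icmt flx/+. ABpIF/F mice (n = 3) differed from ABpIF/+ in carrying Icmt flx/flx. All groups thus shared the Trp53 deletion and at least 1 floxed Icmt allele. Alb-Cre acts in cells that express albumin, hepatocytes above all, so lymphocytes were not the cells in which these alleles were meant to recombine. The study's authors describe the floxed Icmt allele as less expressed even where Cre has not cut it. Icmt in lymphocytes was not measured here. The genotype labels of both ABp groups write BRAF +/+, while the design text gives the knockin. Of the Ctrl mice, 5 of 6 carried a different strain label from the ABp mice, and BG3 carried the same one. The ages of the mice were not in the labels used here.

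T cells recognise antigen through the T cell receptor, whose CD3 chains carry the signal into the cell, and CD4 and CD8 are the coreceptors that mark helper and cytotoxic T cells. B cells do the same with surface immunoglobulin and its signalling partner CD79, and they carry CD20, the product of Ms4a1. After activation B cells become plasma cells, which lose most B cell surface proteins and secrete antibody, and the J chain joins IgA and IgM into polymers. Cytotoxic T cells and NK cells hold granules with granzymes and NKG7. Liver contains resident T and NK cells, B cells, and a large population of Kupffer cells, the macrophages of the sinusoids.

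On the GRCm38 assembly with GENCODE M21, the TCR genes Cd3d (chromosome 9, 44981786 to 44987339, plus strand) and Cd3e (chromosome 9, 44998740 to 45009627, minus strand) lay 11400 bases apart. Cd4 lay at 124864692 to 124888221 (minus) and Cd8a at 71373427 to 71379173 (plus), both on chromosome 6. Cd79a at 24897381 to 24902197 (plus) and Nkg7 at 43437073 to 43438249 (plus) were both on chromosome 7. Ms4a1 lay on chromosome 19, 11249675 to 11266241 (minus), Jchain on chromosome 5, 88519809 to 88527891 (minus), and Gzma on chromosome 13, 113093825 to 113100981 (minus). Cd3e overlapped the annotated genes Gm48719, on the opposite strand, and Gm48720, on its own strand. Ms4a1 overlapped 4930526L06Rik on the opposite strand. The strand setting of the counting is not given in the sources used here, so reads of these overlapping pairs may not have been told apart.

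RefSeq promoter sequence matched 7 of the 9 genes. Of these, 3 are shown, since they stand for the directions described below and their window lay wholly outside the GENCODE gene: Cd3d, a T cell gene that was low in ABpIF/+ mice, Gzma, a cytotoxic gene that was high in ABpIF/F mice, and Jchain, which was high in ABpIF/+ mice. Each is the 250 bases before the RefSeq start (GRCm38.p6), written along the gene's strand, with motif matches in capitals. The windows were chr9:44981536-44981785 (plus), chr13:113100982-113101231 (minus) and chr5:88527898-88528147 (minus).
Cd3d: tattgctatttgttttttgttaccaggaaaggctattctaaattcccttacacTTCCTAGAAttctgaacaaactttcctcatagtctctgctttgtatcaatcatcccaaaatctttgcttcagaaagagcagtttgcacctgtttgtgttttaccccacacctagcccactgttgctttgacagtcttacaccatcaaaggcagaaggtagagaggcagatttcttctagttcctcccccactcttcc
Gzma: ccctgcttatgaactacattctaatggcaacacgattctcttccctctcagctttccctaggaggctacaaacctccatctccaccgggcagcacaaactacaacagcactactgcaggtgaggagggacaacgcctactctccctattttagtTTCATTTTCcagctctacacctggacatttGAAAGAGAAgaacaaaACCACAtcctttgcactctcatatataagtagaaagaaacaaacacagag
Jchain: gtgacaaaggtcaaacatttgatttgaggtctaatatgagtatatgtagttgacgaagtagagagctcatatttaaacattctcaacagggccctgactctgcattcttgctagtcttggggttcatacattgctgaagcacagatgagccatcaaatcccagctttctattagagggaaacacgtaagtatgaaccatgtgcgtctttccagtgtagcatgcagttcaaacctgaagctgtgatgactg
The motifs searched on both strands were the octamer ATGCAAAT, the EBF core CCCNNGGG, the RUNX motif TGTGGT, the IRF core GAAANNGAA, the STAT motif TTCNNNGAA, the ETS motif CCGGAAGT and the TATA box TATAAA. No match overlapped another in these windows. Cd3d held a STAT match, a motif found in 7.02% of the 32851 promoter windows of this length. Gzma held 2 IRF matches and 1 RUNX match, motifs found in 7.13% and 14.0% of all windows. Jchain held none of the 7 motifs in these letters. Cd8a, whose window also lay outside its gene and is not shown, held none of them either. A match is a description of the sequence only.

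Counts per mouse summed to between 24742910 and 32262649. Levels are given as CPM, in which each count was divided by its library's TMM-adjusted size. A gene was called when edgeR's quasi-likelihood test gave a Benjamini-Hochberg adjusted p under 0.01 over all 27179 genes and the fold change was at least 2, and every adjusted p below comes from that test. Icmt, the targeted gene, stood at 15.8 ± 0.711 CPM in ABpIF/F (SD, n = 3), against 30.8 ± 2.72 in Ctrl and 32.7 ± 3.49 in ABpIF/+ (SD, n = 6 each). Hepatocyte genes made up the bulk of each library, with 5 markers including Alb summing to between 85823 and 230967 CPM per mouse, and the 9 genes were all low beside them. The ABpIF/F mouse BG38 stood apart, with 43 counts of Ccl21a, a chemokine of lymphoid tissue, and 27 of Madcam1, an adhesion molecule of lymphoid and gut venules, where the other 14 mice had at most 3 and 1. Its summed neutrophil markers reached 103.6 CPM, against 37.3 in BG90, 5.38 in BG183 and a highest value of 4.57 in Ctrl. The neutrophil rise was thus not confined to BG38. Of 10 neutrophil markers, 9 were called higher in ABpIF/F vs Ctrl, and 3 without BG38 and BG175. Where calls of named genes were lost without BG38, or without BG38 and BG175 together, this is stated beside them. The 2 comparisons with Ctrl share the Ctrl mice, and both ABp groups enter 2 comparisons each. RNA of whole tissue cannot tell fewer cells of a type from less RNA per cell.

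In ABpIF/+ livers most of the 9 genes were lower than in Ctrl livers and Jchain was higher. Cd3d, Cd4 and Cd79a fell and Jchain rose, and the other 5 genes, Cd3e, Cd8a, Ms4a1, Nkg7 and Gzma, did not pass the test, although all had lower means. Thus 1 of 9 was called higher, where 4.69% of all genes tested were, and 3 of 9 were called lower, where 5.35% were. The median log2 difference of the 9 genes was -1.22, while the median of all genes with a read was 0. CPM did not overlap between the groups for 4 of the 9 genes, against 15.9% of all genes. In ABpIF/F vs Ctrl, 1 of 9 genes, Cd8a, was called higher (4.55% of all genes) and 0 lower (2.38%), and 2 did not overlap (17.1%). In ABpIF/+ vs ABpIF/F, 5 genes, Cd4, Cd8a, Cd79a, Nkg7 and Gzma, were called lower in ABpIF/+ (5.49% of all genes) and 0 were called higher (1.76%), with 5 that did not overlap (18.7%). Of the 0 counts, that of lower genes in ABpIF/F vs Ctrl was 0 also at an unadjusted p under 0.05 and by DESeq2, and that of higher genes in ABpIF/+ vs ABpIF/F was 1 at an unadjusted p under 0.05 and 0 by DESeq2. At an adjusted p under 0.05 with any fold, edgeR called 1 higher and 3 lower in ABpIF/+ vs Ctrl, where 12.7% of all genes were called in each direction. It called 3 higher (9.70%) and 0 lower (7.36%) in ABpIF/F vs Ctrl, and 0 higher (7.46%) and 6 lower (10.7%) in ABpIF/+ vs ABpIF/F. With BG38 and the ABpIF/+ mouse BG175 left out, the counts at an adjusted p under 0.01 and 2-fold became 1 higher and 4 lower, 0 and 0, and 0 higher and 2 lower. This setting was chosen after the data were seen. In it the 2 genes lower in ABpIF/+ vs ABpIF/F were Cd79a and Ms4a1, so Cd4, Cd8a, Nkg7 and Gzma lost that call. Ms4a1, called in no comparison with all mice, was also among the 4 lower against Ctrl. With Ctrl limited to BG3, the Ctrl mouse with the strain label of the ABp mice, edgeR called 0 of the 9 genes in either comparison with Ctrl, where it called 1159 and 982 of all genes (2729 and 1883 with all Ctrl mice). With a circadian clock score as a covariate the counts were 4 in ABpIF/+ vs Ctrl and 0 in both comparisons with ABpIF/F, the group with scores of 1.23 to 3.05, where all Ctrl mice but malpa387 were below 0.

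**Figure D1:**
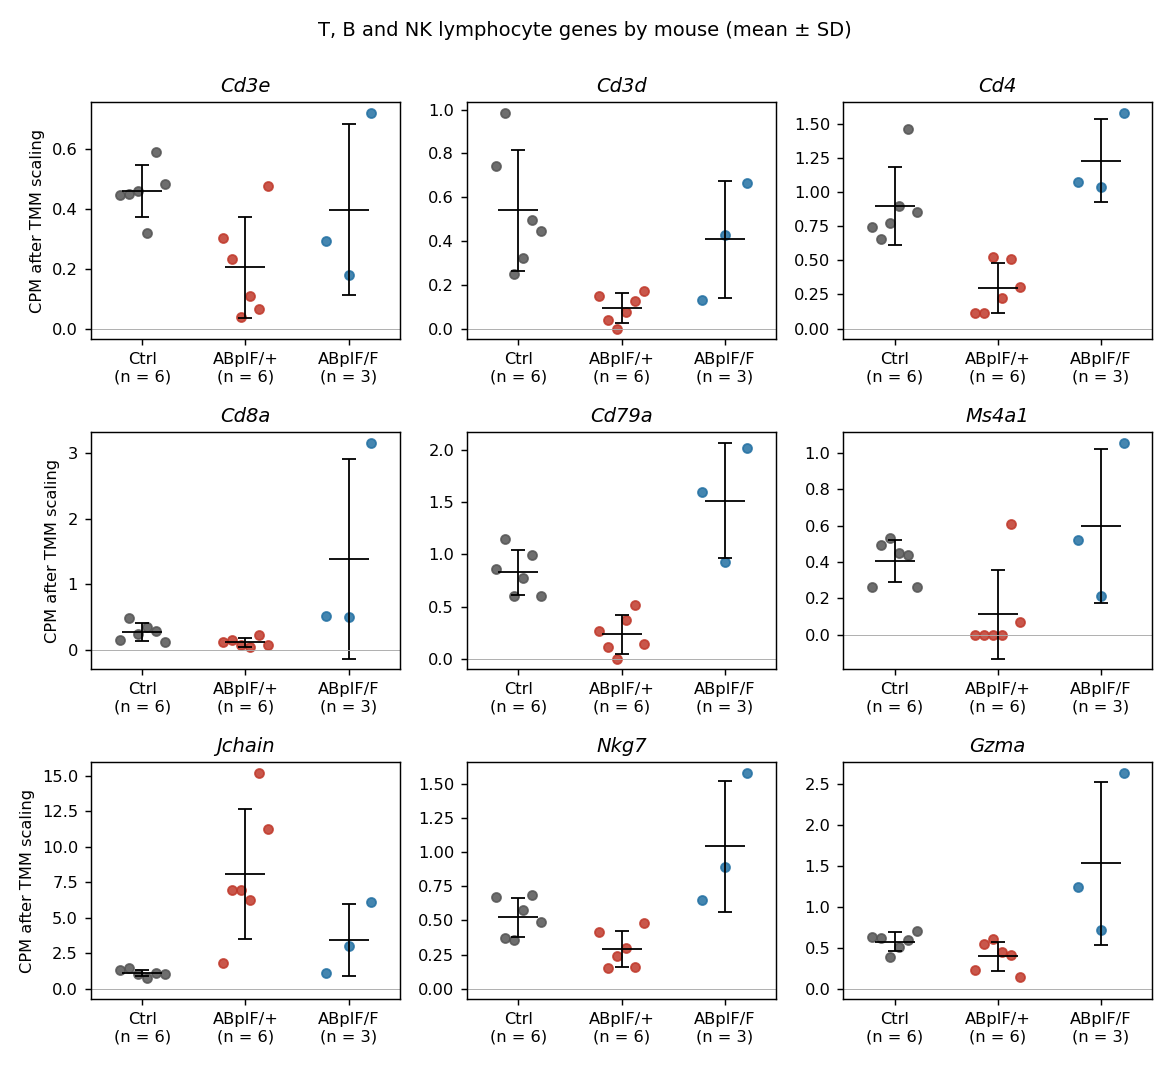
Each panel plots the CPM of 1 gene after TMM scaling (vertical axis, linear) in every mouse of Ctrl (n = 6), ABpIF/+ (n = 6) and ABpIF/F (n = 3), with the mean and SD in black. Jchain reached 15.2 CPM in ABpIF/+ where the other 8 genes stayed at or under 0.608 CPM, and the highest ABpIF/F point of every panel is the mouse BG38.

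The CD3 chains were low throughout. Cd3d, the delta chain, had 0.247, 0.472 and 0.984 CPM as the lowest, median and highest Ctrl mouse. In ABpIF/+ the same values were 0, 0.101 and 0.171 CPM, from 0 to 5 counts. In ABpIF/F it had 0.131 CPM in BG183, 0.429 in BG90 and 0.665 in BG38. Every ABpIF/+ mouse lay under every Ctrl mouse, while ABpIF/F mice spread from the ABpIF/+ range into the Ctrl range. The log2 difference was -2.44 ± 0.58 (SE) in ABpIF/+ vs Ctrl (adjusted p = 0.0026), -0.38 ± 0.62 in ABpIF/F vs Ctrl (adjusted p = 0.931) and -2.05 ± 0.66 in ABpIF/+ vs ABpIF/F (adjusted p = 0.0332).

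Cd3e, the epsilon chain, had 0.321, 0.455 and 0.591 CPM as the lowest, median and highest Ctrl mouse. In ABpIF/+ these were 0.0403, 0.171 and 0.478 CPM. The ABpIF/F levels were 0.294 CPM in BG183, 0.179 in BG90 and 0.720 in BG38. BG30 was the only ABpIF/+ mouse inside the Ctrl range, and the other 5 lay below it. The log2 difference was -1.14 ± 0.52 in ABpIF/+ vs Ctrl (adjusted p = 0.118), -0.19 ± 0.60 in ABpIF/F vs Ctrl (adjusted p = 1) and -0.96 ± 0.61 in ABpIF/+ vs ABpIF/F (adjusted p = 0.348). Of all 8 TCR complex genes, which add Cd3g, Cd247 and the receptor constant regions, Cd3d was the only one called in ABpIF/+ vs Ctrl, and 0 were called by edgeR in the other 2 comparisons. DESeq2 called 0 in ABpIF/F vs Ctrl and 1 lower in ABpIF/+ vs ABpIF/F, and at an unadjusted p under 0.05 these were 1 higher and 5 lower.

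Both coreceptors were lowest in ABpIF/+ mice. Cd4 had 0.656, 0.817 and 1.46 CPM as the lowest, median and highest Ctrl mouse. The matching ABpIF/+ values were 0.113, 0.264 and 0.524 CPM. Among ABpIF/F mice it was at 1.08 CPM in BG183, 1.04 in BG90 and 1.58 in BG38. All ABpIF/+ mice lay under all mice of both other groups, and the ABpIF/F mice lay in the upper part of the Ctrl range or above it. Cd4 fell in ABpIF/+ vs Ctrl (log2 -1.57 ± 0.39, adjusted p = 0.00364) and in ABpIF/+ vs ABpIF/F (log2 -2.02 ± 0.44, adjusted p = 0.00221). In ABpIF/F vs Ctrl its log2 difference was 0.45 ± 0.43 (adjusted p = 0.640). Without the Ctrl mouse malpa459, the highest for Cd4, the first difference was -1.38 (adjusted p = 0.0149), and without BG38 the second was -1.80 (adjusted p = 0.0202). Kupffer cells and dendritic cells can also transcribe Cd4.

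Cd8a had 0.112, 0.264 and 0.492 CPM as the lowest, median and highest Ctrl mouse. In ABpIF/+ these were 0.0368, 0.0969 and 0.224 CPM, from 1 to 7 counts. In ABpIF/F it had 0.522 CPM in BG183, 0.500 in BG90 and 3.16 in BG38, from 16, 14 and 114 counts. BG38 alone was far above the rest, and the other ABpIF/F mice were just above the highest Ctrl mouse. The log2 difference was 2.35 ± 0.58 in ABpIF/F vs Ctrl (adjusted p = 0.00533) and -3.57 ± 0.62 in ABpIF/+ vs ABpIF/F (adjusted p = 0.000278), and it was -1.22 ± 0.59 in ABpIF/+ vs Ctrl (adjusted p = 0.153). Without BG38 the call of Cd8a was lost in both comparisons with ABpIF/F, with log2 values of 0.90 (adjusted p = 0.534) and -2.12 (adjusted p = 0.0364). The call against Ctrl was also lost without malpa387, malpa454, malpa459 or malpa462, at adjusted p = 0.0111 to 0.0138.

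Both B cell genes were low in ABpIF/+ livers, with 1 exception among the mice. Cd79a, a signalling chain of the B cell receptor, had 0.597, 0.813 and 1.15 CPM as the lowest, median and highest Ctrl mouse. The matching ABpIF/+ values were 0, 0.200 and 0.512 CPM. The ABpIF/F levels were 1.60 CPM in BG183, 0.929 in BG90 and 2.02 in BG38. Every ABpIF/+ mouse lay under every mouse of the other groups. Cd79a fell in ABpIF/+ vs Ctrl (log2 -1.78 ± 0.47, adjusted p = 0.00606) and in ABpIF/+ vs ABpIF/F (log2 -2.66 ± 0.52, adjusted p = 0.000894). Its log2 difference in ABpIF/F vs Ctrl was 0.88 ± 0.50 (adjusted p = 0.288). The call in ABpIF/+ vs Ctrl was lost when malpa387, BG3, malpa459, BG55, BG40 or BG30 was left out, with log2 values of -1.81 to -1.65 and adjusted p = 0.0102 to 0.0167.

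Ms4a1 had 0.261, 0.442 and 0.530 CPM as the lowest, median and highest Ctrl mouse, from 7 to 15 counts. In ABpIF/+ it had 0 counts in 4 of 6 mice, 2 counts in BG30 and 19 counts, 0.608 CPM, in BG175. A count of 0 allows up to 3 counts, which in those 4 libraries is 0.111 to 0.121 CPM and covers counting error only. Among ABpIF/F mice it was at 0.522 CPM in BG183, 0.214 in BG90 and 1.05 in BG38. BG175 was above every Ctrl mouse and the other 5 ABpIF/+ mice were below every Ctrl mouse. The log2 difference in ABpIF/+ vs Ctrl was -1.72 ± 0.81 (adjusted p = 0.140). Without BG175 it was -4.44 (adjusted p = 0.000178), and against ABpIF/F it went from -2.29 (adjusted p = 0.0894) to -4.93 (adjusted p = 0.000264). The difference of ABpIF/F vs Ctrl was 0.57 ± 0.85 (adjusted p = 0.899).

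The wider B cell list holds 16 genes, Cd79a and Ms4a1 among them. Of these, 7 were called lower in ABpIF/+ vs Ctrl, Cd79a being 1 of the 7, and 0 higher (0 also by DESeq2 and at an unadjusted p under 0.05), and the list's median log2 difference was -2.01. Bank1, a scaffold of B cell receptor signalling, went from 2.48 ± 0.247 CPM in Ctrl to 0.308 ± 0.148 in ABpIF/+ (SD, n = 6 each, log2 -2.97, adjusted p = 3.84e-07). Blnk, the adaptor that links the receptor to its kinases, went from 3.86 ± 1.20 to 0.552 ± 0.255 CPM (log2 -2.78, adjusted p = 2.39e-06). Kupffer and other myeloid cells also express Blnk. Cd22, an inhibitory receptor of B cells, was called lower too (log2 -1.50, adjusted p = 0.00515). Between ABpIF/F and Ctrl 0 of 16 were called by edgeR, 1 was called higher by DESeq2, and 2 were higher at an unadjusted p under 0.05. In ABpIF/+ vs ABpIF/F 7 were called lower, among them Cd79b, the partner of Cd79a (log2 -2.59, adjusted p = 0.000343), and Cr2, the complement receptor of B cells and follicular dendritic cells (log2 -3.26, adjusted p = 0.00337). Without BG38 and BG175 the B cell counts were 11, 0 and 5 lower, and Cr2 was not called against ABpIF/F (adjusted p = 0.0975). Summed CPM of the 16 genes was 12.7 to 15.7 in Ctrl, 1.37 to 5.60 in ABpIF/+ and 12.8 to 28.1 in ABpIF/F.

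**Figure D2:**
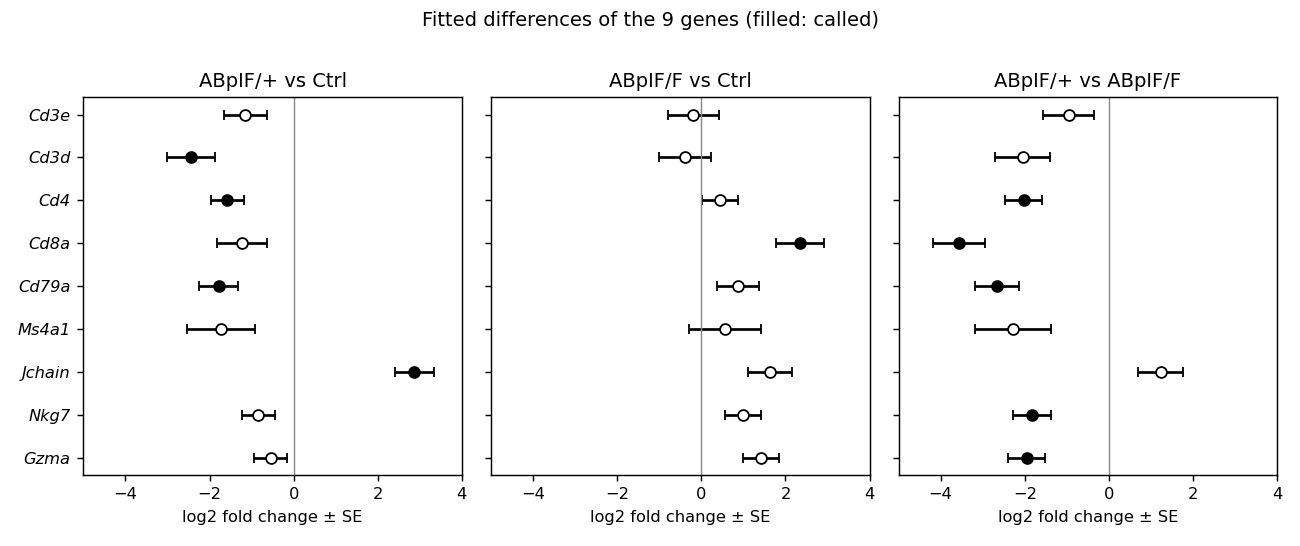
Log2 fold changes of the 9 genes with their SE (horizontal axis) in each of the 3 comparisons, filled where called. Jchain stands to the right of 0 in all 3 panels, at 2.87 in ABpIF/+ vs Ctrl, and the other 8 genes stand to the left in both panels that start with ABpIF/+.

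Jchain moved the other way. It had 0.770, 1.07 and 1.44 CPM as the lowest, median and highest Ctrl mouse, from 24 to 36 counts. In ABpIF/+ these were 1.81, 6.97 and 15.2 CPM, from 48 to 475 counts. In ABpIF/F it had 1.11 CPM in BG183, 3.04 in BG90 and 6.12 in BG38. Every ABpIF/+ mouse was above every Ctrl mouse, with BG55 the lowest and BG175 the highest, and the ABpIF/F mice ran from the Ctrl level into the ABpIF/+ range. Jchain was 7.29-fold higher in ABpIF/+ than in Ctrl (log2 2.87 ± 0.46, adjusted p = 0.000193). Its ABpIF/F level was 3.10-fold that of Ctrl without being called (log2 1.63 ± 0.52, adjusted p = 0.0433), and it was called when BG183 (log2 2.05, adjusted p = 0.00799) or the ABpIF/+ mouse BG55 (adjusted p = 0.00645) was left out. ABpIF/+ and ABpIF/F differed by log2 1.23 ± 0.54 (adjusted p = 0.142).

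Of 11 immunoglobulin constant genes, 4 were called higher in ABpIF/+ vs Ctrl, Igha, Igkc, Ighg2b and Iglc1, and 7 were not called, 3 of them with lower means. Igha, the constant region of IgA heavy chains, went from 3.94 ± 2.07 CPM in Ctrl to 38.1 ± 21.6 in ABpIF/+ (SD, n = 6 each), with counts of 60 to 166 against 182 to 2062. The log2 difference was 3.28 ± 0.58 (adjusted p = 0.000886). Igkc, the kappa light chain, went from 3.72 ± 1.78 to 20.7 ± 11.9 CPM (log2 2.48, adjusted p = 0.00565), and Ighg2b, an IgG heavy chain, from 0.135 ± 0.106 to 1.24 ± 0.405 CPM (log2 3.20, adjusted p = 0.000102). Igha and Ighg2b did not overlap between these groups, and Igkc did. BG55 was the lowest ABpIF/+ mouse for Igha and Igkc as it was for Jchain, and the highest were BG175 for Igha and BG30 for Igkc, where BG175 had 34.4 CPM and BG30 34.7. Ighm, the heavy chain of IgM that naive B cells also carry, stood at 5.08 ± 1.42 CPM in Ctrl and 3.14 ± 1.23 in ABpIF/+ (log2 -0.69, adjusted p = 0.0901). Ighd, the IgD heavy chain of naive B cells, had 0.612 CPM in Ctrl and 0.141 in ABpIF/+ as means (log2 -2.03, adjusted p = 0.0157), and Ighg2c, with few counts, a log2 difference of -2.82 (adjusted p = 0.160). These genes were chosen after their values were seen.

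Of the 17 genes of the plasma cell and immunoglobulin list, 5 were called higher in ABpIF/+ vs Ctrl and 0 lower, against 5 and 2 by DESeq2 and 7 and 3 at an unadjusted p under 0.05 by edgeR. The 5 were Jchain itself and the 4 immunoglobulin genes, Iglc1 (log2 2.64) being named after its values were seen. The lambda constant genes and the IgG heavy chains have near-identical copies, so reads may have been split between them and these values are uncertain. In ABpIF/F vs Ctrl, 16 of the 17 had higher fitted levels (median log2 1.51, against 1.40 in ABpIF/+ vs Ctrl). Igha, not called there, was at 12.9 ± 8.84 CPM in ABpIF/F (SD, n = 3, log2 1.72, adjusted p = 0.0959). Igkc, not called either, was at 14.2 ± 13.9 CPM (log2 1.94, adjusted p = 0.0594). In ABpIF/+ vs ABpIF/F, edgeR called 0 of the 17 higher and 1 lower (median log2 -0.57). These were 2 and 5 at an unadjusted p under 0.05, and 0 and 5 by DESeq2. Against Ctrl, ABpIF/F had 2 of 17 called higher, Ighg2b (log2 3.64, adjusted p = 0.000122) and Ighg1 (log2 4.79, adjusted p = 0.00338), the latter with 586 counts in BG38, 7 in BG183 and 27 in BG90. Without BG38 and BG175 neither was called (adjusted p = 0.0235 and 0.279), while the 5 higher calls in ABpIF/+ vs Ctrl stayed 5 in number, with Igha, Igkc, Ighg2b and Iglc1 among them, and 1 gene, Irf4, was called lower (adjusted p = 0.00724). Secretory and maturation genes of plasma cells gave less: Mzb1, a chaperone of antibody assembly, had a log2 difference of 1.47 in ABpIF/+ vs Ctrl (adjusted p = 0.0581), Prdm1, a regulator of plasma cell fate, 0.44 (adjusted p = 0.609), and Irf4, a regulator of activated B and T cells, -1.47 (adjusted p = 0.0148). Tnfrsf17, the BCMA receptor of plasma cells, had at most 5 counts in any mouse. Their values were looked up after the Jchain result was known.

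**Figure D3:**
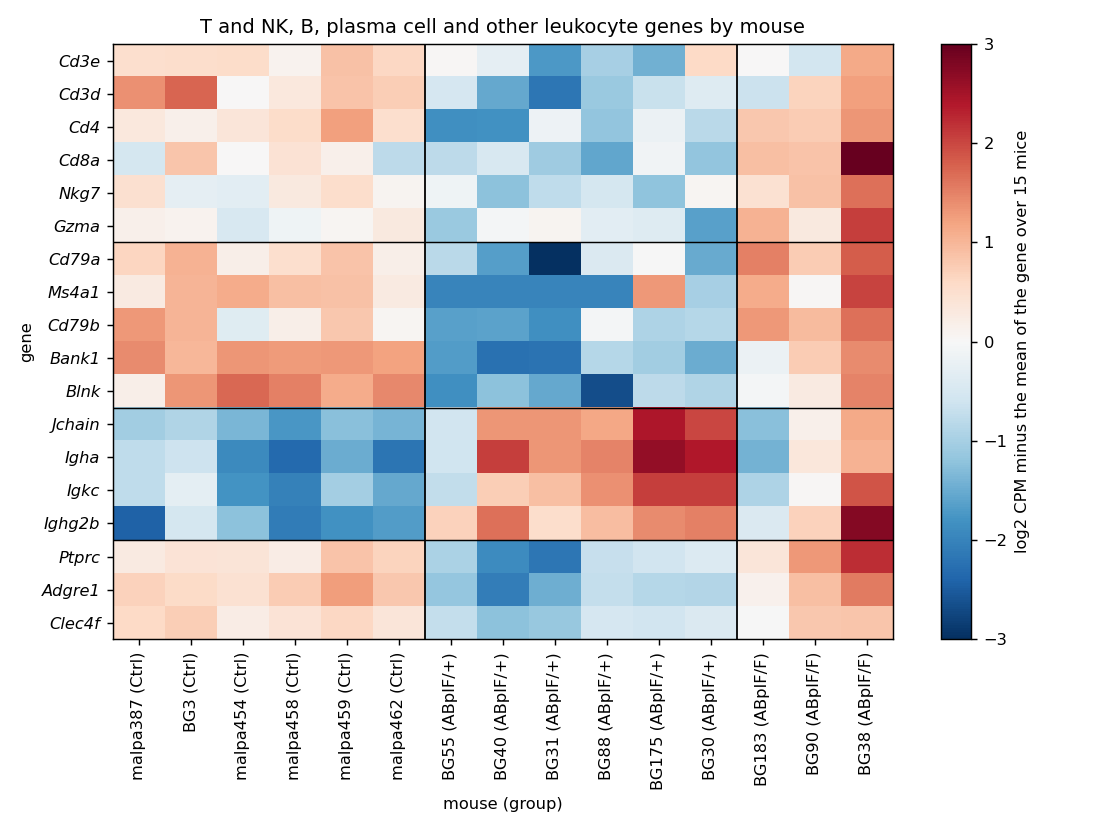
Colors give log2 CPM minus the gene's mean over the 15 mice, from -3 (blue) to 3 (red), with mice in columns and genes in rows grouped as T and NK, B, plasma cell and other leukocyte genes. The 4 plasma cell rows run blue in Ctrl and red in 5 of 6 ABpIF/+ mice, opposite to the B cell rows, and BG38 is red in nearly every row.

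Of the 9 genes, the cytotoxic genes Nkg7 and Gzma differed least from Ctrl in ABpIF/+ livers, and their means were highest in ABpIF/F livers. Nkg7, a granule membrane protein, had 0.353, 0.531 and 0.684 CPM as the lowest, median and highest Ctrl mouse. The matching ABpIF/+ values were 0.155, 0.268 and 0.478 CPM. The ABpIF/F levels were 0.653 CPM in BG183, 0.893 in BG90 and 1.58 in BG38. ABpIF/+ overlapped Ctrl in its upper mice and lay wholly under ABpIF/F. The log2 difference was -0.84 ± 0.39 in ABpIF/+ vs Ctrl (adjusted p = 0.135), 0.99 ± 0.43 in ABpIF/F vs Ctrl (adjusted p = 0.136) and -1.83 ± 0.44 in ABpIF/+ vs ABpIF/F (adjusted p = 0.00489).

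Gzma, granzyme A, had 0.389, 0.603 and 0.708 CPM as the lowest, median and highest Ctrl mouse. In ABpIF/+ these were 0.136, 0.429 and 0.605 CPM. Among ABpIF/F mice it was at 1.24 CPM in BG183, 0.715 in BG90 and 2.63 in BG38. All ABpIF/F mice were above all others, BG90 by a narrow margin. The log2 difference was -0.54 ± 0.40 in ABpIF/+ vs Ctrl (adjusted p = 0.399), 1.41 ± 0.43 in ABpIF/F vs Ctrl (adjusted p = 0.0250) and -1.96 ± 0.44 in ABpIF/+ vs ABpIF/F (adjusted p = 0.00281). Without BG38 the last difference was -1.31 for Gzma (adjusted p = 0.0880) and -1.39 for Nkg7 (adjusted p = 0.0790), so neither was called. Nkg7 also lost this call without BG40, BG31, BG175 or BG90, at adjusted p = 0.0101 to 0.0137.

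Of 10 cytotoxic granule and effector genes, 1 was called lower in ABpIF/+ vs Ctrl, 2 higher in ABpIF/F vs Ctrl and 5 lower in ABpIF/+ vs ABpIF/F. Over all genes these shares were 5.35%, 4.55% and 5.49%. The 1 lower against Ctrl was Xcl1, near the floor with 0 to 1 counts per ABpIF/+ mouse and 1 to 8 per Ctrl mouse. The 2 higher in ABpIF/F were Gzmb, granzyme B, at 2.36 ± 1.68 CPM against 0.667 ± 0.369 in Ctrl (SD, n = 3 and 6, log2 1.81, adjusted p = 0.00741 by edgeR), and the chemokine Ccl5 (log2 1.68, adjusted p = 0.00934). With BG38 and BG175 left out all 3 edgeR counts of this list were 0, with Gzmb and Ccl5 in ABpIF/F vs Ctrl at log2 1.02 and 1.00 (adjusted p = 0.294 and 0.277). Of 18 NK receptors and regulators, 2 were called lower and 1 higher in ABpIF/+ vs Ctrl, where 5.35% and 4.69% of all genes were. Of the 2 lower, Klre1 was near the floor, with 0 to 2 counts per ABpIF/+ mouse and 3 to 10 per Ctrl mouse. Klrk1, the activating receptor NKG2D, fell from 1.75 ± 0.485 to 0.586 ± 0.190 CPM (log2 -1.56, adjusted p = 0.000662). The 1 higher was Itga2, the integrin that carries the DX5 epitope of NK cells and is also made by epithelial cells (log2 2.96, adjusted p = 0.00843). It had 1 to 30 counts per ABpIF/+ mouse and 0 to 5 per Ctrl mouse. Without BG38 and BG175 this call stayed (log2 3.13, adjusted p = 0.00351), and ABpIF/+ vs ABpIF/F was at log2 -0.08. In ABpIF/F vs Ctrl Itga2 was called higher too (log2 4.21, adjusted p = 0.00135), as was Cd244a, the receptor 2B4 (log2 2.43, adjusted p = 0.00271). Without BG38 and BG175 neither was called in that comparison (adjusted p = 0.0228 and 0.0837).

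Among other T cell genes, 3 of 14 signalling and surface genes were called lower in ABpIF/+ vs Ctrl, namely Zap70, Thy1 and Lcp2. Over all genes, 5.35% were called lower in that comparison. Zap70, the kinase next to the CD3 chains, had 14.1 ± 3.04 CPM in Ctrl, far above the 0.459 CPM of Cd3e, and 5.60 ± 2.39 in ABpIF/+ (log2 -1.33, adjusted p = 0.00139) and 5.28 ± 2.23 in ABpIF/F (log2 -1.42, adjusted p = 0.0090). Without BG38 and BG175 Zap70 was still called in ABpIF/+ vs Ctrl (log2 -1.39, adjusted p = 0.00212) but not in ABpIF/F vs Ctrl (log2 -1.22, adjusted p = 0.0805), although BG38 had the lowest Zap70 level of the ABpIF/F mice, at 3.35 CPM. Of 12 homing and memory genes 4 were called lower in ABpIF/+ vs Ctrl, among them the sphingosine phosphate receptor S1pr1 (log2 -1.52, adjusted p = 9.51e-07), which endothelial cells also express. Of 11 regulatory and checkpoint genes 1, Icos, was called lower in ABpIF/+ vs Ctrl, and 1, Tnfrsf18, higher in ABpIF/F vs Ctrl. Over all genes these shares were 5.35% and 4.55%. The Tnfrsf18 call was lost without BG38 and BG175 (log2 1.38, adjusted p = 0.0453).

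**Figure D4:**
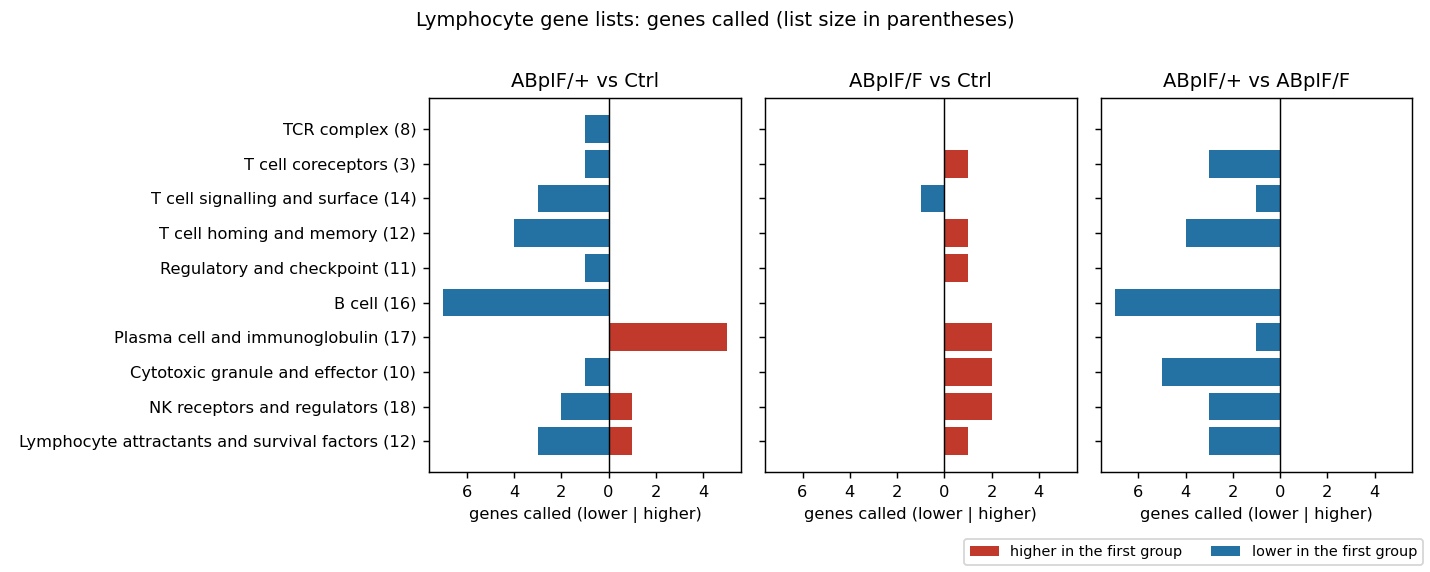
Bars count the genes called higher (right, red) or lower (left, blue) in each of 10 lymphocyte gene lists, in the 3 comparisons, with list sizes in parentheses. In ABpIF/+ vs Ctrl the B cell list has 7 lower and the plasma cell and immunoglobulin list 5 higher. Over all genes, 5.35% were called lower and 4.69% higher in that comparison.

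Of 12 genes for lymphocyte attractants and survival factors, 3 were called lower and 1 higher in ABpIF/+ vs Ctrl (5.35% and 4.69% of all genes). Cxcl9, the interferon-induced chemokine that draws CXCR3-bearing T and NK cells, stood at 15.3 ± 3.69 CPM in Ctrl, 2.25 ± 1.66 in ABpIF/+ and 19.3 ± 11.4 in ABpIF/F (SD, n = 6, 6 and 3). Its log2 difference was -2.75 in ABpIF/+ vs Ctrl (adjusted p = 0.000629) and -3.09 in ABpIF/+ vs ABpIF/F (adjusted p = 0.00115). Cxcl10, a ligand of the same receptor, was lower in the same comparisons (log2 -1.76 and -2.45, adjusted p = 0.000899 and 0.000283). Without BG38 and BG175 the Cxcl9 call against ABpIF/F was lost (log2 -2.61, adjusted p = 0.0139), while Cxcl10 was called in both comparisons (adjusted p = 0.00121 and 0.00946). Tnfsf13, or APRIL, a survival factor for plasma cells, was higher in both ABp groups. It had 0 to 11 counts per Ctrl mouse, 46 to 133 per ABpIF/+ mouse and 149 to 278 per ABpIF/F mouse. The log2 difference was 3.62 in ABpIF/+ vs Ctrl (adjusted p = 2.18e-06) and 4.70 in ABpIF/F vs Ctrl (adjusted p = 5.87e-07), and both calls stood without BG38 and BG175. Tnfsf13 is annotated inside a readthrough transcript with its neighbour Tnfsf12 and has an antisense gene, so its count is uncertain. The mean of Tnfsf13 was highest in ABpIF/F and that of Jchain in ABpIF/+.

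Several other cell type lists were also lower in ABpIF/+ livers, neutrophil genes were not, and the summed hepatocyte markers were higher. Ptprc, the CD45 protein of all leukocytes, stood at 10.5 ± 1.85 CPM in Ctrl, 3.77 ± 1.65 in ABpIF/+ and 20.9 ± 12.8 in ABpIF/F (log2 -1.47 in ABpIF/+ vs Ctrl, adjusted p = 0.00295). Of 12 macrophage and Kupffer cell markers, 7 were called lower in ABpIF/+ vs Ctrl and 0 higher (0 also by DESeq2 and at an unadjusted p under 0.05), with Clec4f and Adgre1 among them. Their summed CPM was 441.4 to 612.8 in Ctrl, 185.8 to 326.3 in ABpIF/+ and 376.0 to 917.9 in ABpIF/F. Of 6 stellate cell and fibroblast markers 5 were called lower in ABpIF/+ vs Ctrl (median log2 -2.16), with sums of 198.5 to 262.8 CPM in Ctrl and 56.1 to 119.2 in ABpIF/+. Of 10 neutrophil markers edgeR called 0 in that comparison (5 higher and 1 lower at an unadjusted p under 0.05, 2 higher and 1 lower by DESeq2), and 9 of the 10 had higher means (median log2 1.35). Hepatocyte marker sums did not overlap, at 85823 to 119623 CPM in Ctrl and 159544 to 230967 in ABpIF/+, and were 119936 to 210308 in ABpIF/F, with 2 of 5 called higher in ABpIF/+ vs Ctrl. Alb, the largest part of the sum, was not called (log2 0.79, adjusted p = 0.00168). Of the 5, 4 had higher fitted levels in ABpIF/+, and Ttr was lower (log2 -0.81, adjusted p = 0.00429), also without being called. The part of these wider changes in the lower T and B cell genes was not tested. As a description, counts were divided by those of Ptprc in the same mouse. Per 100 Ptprc counts, all 9 genes except Jchain overlapped between ABpIF/+ and Ctrl, a ratio not computed over all genes. Cd4 had 8.53 ± 1.72 in Ctrl and 10.3 ± 11.1 in ABpIF/+, where BG31 reached 32.5 on 40 Ptprc counts. Cd79a had 8.06 ± 2.37 and 5.58 ± 3.75 (SD, n = 6 each). The ABpIF/+ median was below Ctrl's for Cd4 (5.67 and 8.08), Cd79a (6.41 and 8.14), Cd3d (2.25 and 3.73) and Ms4a1 (0 and 4.09). It was above Ctrl's for Cd3e (5.21 and 4.46), Cd8a (3.71 and 2.31), Nkg7 (8.16 and 4.57) and Gzma (8.98 and 5.93). Jchain had 8.31 to 14.4 per 100 Ptprc counts in Ctrl, 47.5 to 432.5 in ABpIF/+ and 11.6 to 17.6 in ABpIF/F, with ABpIF/+ wholly above both other groups. Cd3e and Cd3d per 100 Ptprc counts were lower in all 3 ABpIF/F mice than in any Ctrl mouse, at 0.969 to 3.06 against 3.70 to 4.92 for Cd3e. Ptprc itself was highest in BG38, with 1256 counts.

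**Figure D5:**
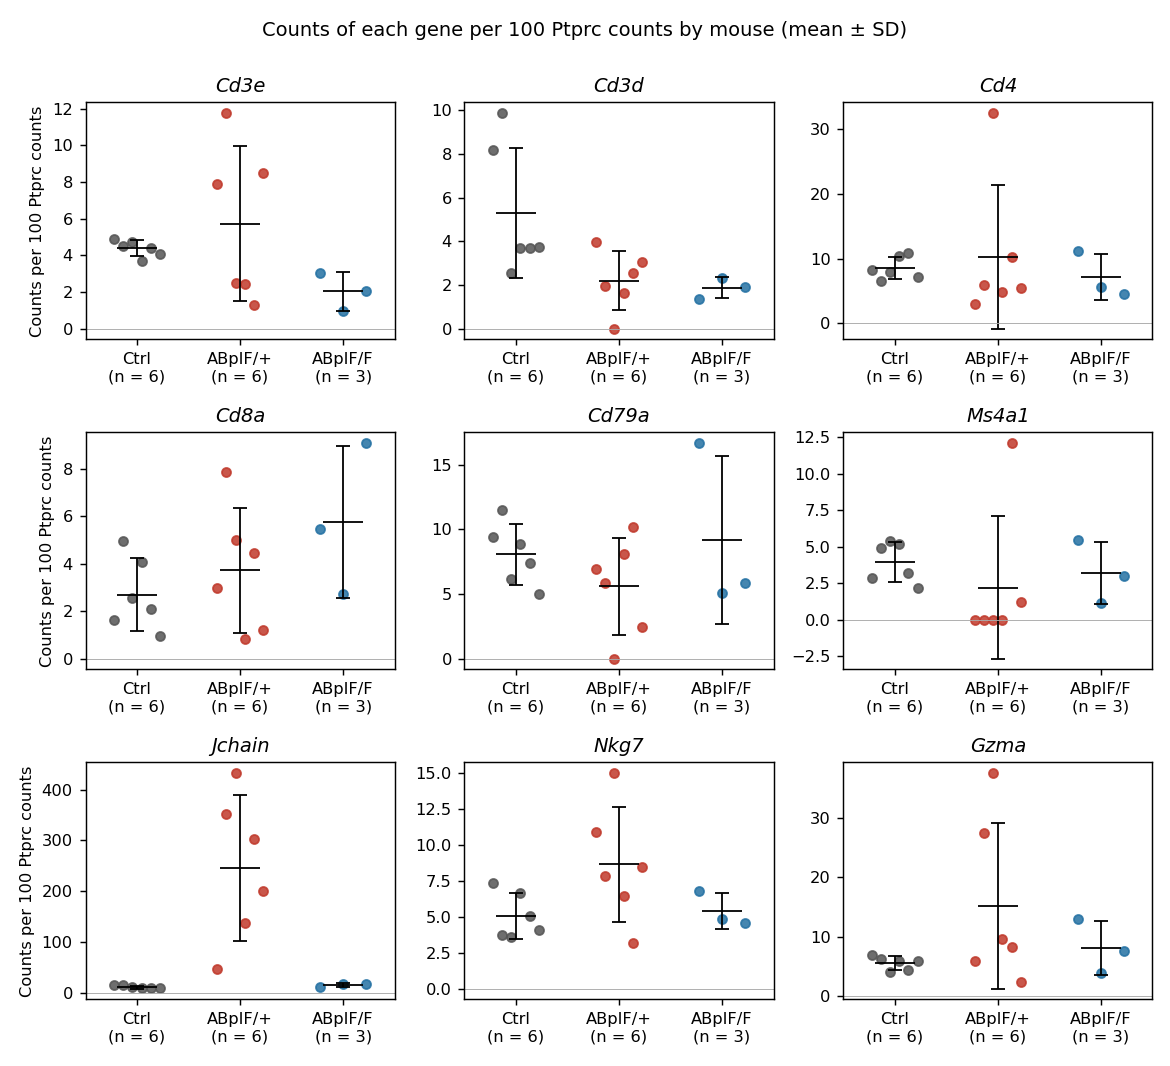
Counts of each gene per 100 Ptprc counts (vertical axis, linear) in every mouse, with the mean and SD in black. Jchain is the panel in which ABpIF/+ (47.5 to 432.5) does not overlap Ctrl (8.31 to 14.4).

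Per kb of annotated exon, so that genes can be compared, the mean level in Ctrl ran from 0.0654 CPM per kb for Ms4a1, 0.0748 for Cd8a and 0.112 for Cd3e, through 0.223 for Cd4, 0.298 for Cd3d and 0.441 for Jchain, to 0.568 for Cd79a, 0.571 for Gzma and 0.572 for Nkg7. The last 3 lay within the spread between mice of each other, as did Ms4a1 and Cd8a. In ABpIF/+ Jchain led at 3.21 ± 1.82 CPM per kb, followed by Gzma at 0.392 ± 0.180. In ABpIF/F the highest were Gzma at 1.52 ± 0.984, Jchain at 1.36 ± 1.00, Nkg7 at 1.14 ± 0.526 and Cd79a at 1.04 ± 0.378 (SD, n = 3), which did not differ beyond their spread.

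Across the 15 mice the 8 genes other than Jchain were positively correlated in log2 CPM in all 28 pairs (Pearson r from 0.20 to 0.83), highest for Cd4 with Ms4a1, while Jchain had r from -0.52 to -0.14 with them. These are descriptions over mice that differ in group, with few counts per gene. Among genes of at least 1 CPM, those most like Jchain were Igha (r = 0.98), Igkc (0.96), Rap1gap2 (0.93), Fry (0.93) and Lrrc39 (0.91), a list added after the values were seen. Those most like Nkg7 were Laptm5, Itgax, Tyrobp, Cd22 and Dock2 (0.92 to 0.93), all genes of leukocytes. Those most like Cd79a were Sparcl1, Tgfb1, Cnn2, Fbln5 and Neurl3 (0.94 to 0.95), and those most like Cd3e were Fntb, Hk3, Coro2b, Tmcc2 and Cyria (0.83 to 0.86). Neither the Cd79a nor the Cd3e partners include a gene of the B or T cell lists used here. Genes with a mean under 1 CPM over the 15 mice, such as Cd3d, were not candidates. These included all TCR complex genes, the coreceptors and most of the B cell list, so their absence was fixed beforehand.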

How the data were processed

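Raw read counts of 27179 genes in 15 mouse livers were used as deposited, 1 column per mouse. GEO's 23 samples name 8 of the mice in pairs and 7 singly, so libraries of a mouse cannot be told apart and p-values measure the spread between mice. The authors prepared stranded polyA libraries, aligned reads to mm10 with HISAT2 and counted them with featureCounts 2.0.8, and the annotation is not given in the sources used here. The deposited counts were read from the tab-separated table. In the other deposited file, 10 columns held the same counts, 5 columns headed by bare numbers were not used, and the authors' own fold changes and p-values were not used. R 4.3.3, edgeR 4.0.16 and DESeq2 1.42.0 were used. All genes were kept, TMM factors computed, and 1 robust quasi-likelihood fit (the older edgeR form, tested on simulated data) was made over 3 groups, with Benjamini-Hochberg adjustment over all genes. Calls needed an adjusted p under 0.01 and a 2-fold change, as in the study. Log2 CPM used a prior count of 2. SE is the log2 fold change divided by the square root of F. Depth limits precision, since most of the 9 genes had under 60 counts per mouse.

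The 9 genes and the lists were chosen with earlier results of these data known. Named beside the 9 were, of each list, up to 3 called genes per comparison with the largest fold change and at least 1 CPM in a group, Ptprc and defining markers of other cells, and the 5 genes most correlated with Cd3e, Cd79a and Nkg7. Other named genes were chosen after their values were seen. Alternatives were RLE factors, DESeq2, filterByExpr, the newer quasi-likelihood form, no robust estimation, other thresholds, 2-group fits, each mouse left out, Ctrl limited to BG3, a circadian clock score as covariate, and BG38 and BG175 left out. Positions came from GENCODE M21 and promoters from RefSeq (GRCm38.p6).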

Additional observations from a re-analysis of the deposited data

Results flagged for a closer look

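Cd4 was set apart in Ctrl, where malpa459 had 1.46 CPM and the gap to the next mouse was 0.70 of the group's whole range. Ms4a1 was set apart in ABpIF/+, where BG175 had 0.608 CPM and the gap to the next mouse was 0.89 of the range. Both gaps exceed Dixon's 95% critical value of 0.625 for 6 mice. The check covered 18 sets of gene and group, both ends, and chance flags about 1 in 20 groups. BG175 also had 16 counts of Cd79a, another B cell gene, against 0 to 10 in the other ABpIF/+ mice.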

How the results depend on the processing

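Members called in ABpIF/+ vs Ctrl numbered 4 in 8 of the settings tried beside it, but 2 at a 4-fold threshold and 0 when Ctrl was limited to BG3, the mouse with the strain label of the ABp mice, where the lone mouse was assumed to vary like the others. In that setting the log2 difference of Jchain was 2.49 (adjusted p = 0.346) and of Cd3d -3.31 (adjusted p = 0.0308). In ABpIF/F vs Ctrl the count was 1, but 2 with DESeq2 (which gave Cd8a no adjusted p), 2 with the edgeR 4 form, 3 at an adjusted p under 0.05 with any fold, 0 with Ctrl limited to BG3, 0 with the clock score as covariate and 0 without BG38 and BG175. In ABpIF/+ vs ABpIF/F the count was 5, but 3 at a 4-fold threshold, 2 when only these groups were fitted, 0 with the clock score and 2 without BG38 and BG175. Those last 2 were Cd79a and Ms4a1, of which Ms4a1 was not among the 5. The clock score was 1.23 to 3.05 in ABpIF/F and -1.05 to -0.26 in ABpIF/+, so score and group cannot be told apart there. The cause of the other changes was not tested.

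Leaving out each mouse in turn gave 2 to 5 in ABpIF/+ vs Ctrl (lowest without malpa459, highest without BG175), 0 to 2 in ABpIF/F vs Ctrl and 1 to 5 in ABpIF/+ vs ABpIF/F (lowest without BG38). In ABpIF/F vs Ctrl the count was 0 without malpa387, malpa454, malpa459, malpa462 or BG38, and 2 without BG55 or BG183. Cd79a in ABpIF/+ vs Ctrl lost its call without malpa387, BG3, malpa459, BG55, BG40 or BG30. Signs turned only in ABpIF/F vs Ctrl, for genes that were not called: with mice left out in turn the log2 difference ranged from -0.94 to 0.15 for Cd3e, -0.94 to 0.033 for Cd3d and -0.13 to 0.96 for Ms4a1, which was -0.16 without BG38 and BG175. RLE factors, filterByExpr (all 9 genes passed) and fitting without robust estimation left all 3 counts as they were. The other deposited table was not run on all mice, and in its 10 usable columns 271790 of 271790 values were equal. No paired analysis was possible because replicate numbers were given in accession order.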
